A study of Mus musculus with 9 samples.

Results

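The loci of the 4 mouse inhibitor-of-differentiation genes Id1, Id2, Id3 and Id4 were examined for SMAD1, T and TCF1 in chromatin immunoprecipitation followed by sequencing (ChIP-seq). Members were chosen by position alone, as every deposited 2 kb window that overlaps the gene interval widened by 30 kb on each side. The intervals were 152562000 to 152563200 on chromosome 2 for Id1, 25778500 to 25781000 on chromosome 12 for Id2, 135699400 to 135701200 on chromosome 4 for Id3 and 48356500 to 48360000 on chromosome 13 for Id4, all in the mm9 build. This gave 64 windows for Id1, 64 for Id2, 64 for Id3 and 65 for Id4, or 257 of 2654924 in all. All 257 passed the filter on input level. The intervals came with the choice of loci and were not checked against an mm9 annotation here.

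All 9 libraries are labelled as epiblast-like cells (EpiLC) of the C57BL/6 strain. Embryonic stem cells had been induced to that state and were then cultured in suspension as aggregates, the step in which primordial germ cell-like cells arise. The immunoprecipitated libraries were SMAD1 at 36 h and T (Brachyury) in PV, a Prdm14-mVenus reporter line, and SMAD1 at 12, 24 and 36 h and TCF1 in BV, a Blimp1-mVenus reporter line. The titles give no time for T and TCF1. The inputs, sheared chromatin that met no antibody, were titled PV, BVSC and BV, and BVSC carries the BV genotype label. The aggregates were grown with or without BMP4 and WNT3A, and the labels do not say which library received which, so no untreated SMAD1 library can be named. Each group held 1 library, so no difference below has a replicate check and no p-value is given, and the data hold no expression values against which the cell type label could be checked.

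BMP ligands act through receptor kinases that phosphorylate SMAD1 and its relatives, which enter the nucleus with SMAD4 and bind DNA. The Id genes are among the best known direct targets of this pathway in many cell types. Id proteins carry a helix-loop-helix domain but no basic DNA-binding region, and they hold E proteins and other basic helix-loop-helix factors in pairs that cannot bind DNA, which delays differentiation. BMP signalling is required for germ cell fate in the mouse epiblast.

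The sequences just before the starts of the Id genes are shown first because the SMAD1 signal described below lies at or within a few kilobases of the genes. RefSeq's promoter table for GRCm38.p6 held 3 of the 4 genes (Id2, Id3 and Id4). The 250 bases before the start are given 5′ to 3′ on the transcribed strand. Capitals mark GGCGCC, a GC-rich element known from BMP-responsive Id enhancers, and the SMAD-binding core GTCT or its reverse complement AGAC. Id2 lies on the minus strand at chr12:25096093-25096342, Id3 on the plus strand at chr4:136143572-136143821 and Id4 on the plus strand at chr13:48260866-48261115.
Id2: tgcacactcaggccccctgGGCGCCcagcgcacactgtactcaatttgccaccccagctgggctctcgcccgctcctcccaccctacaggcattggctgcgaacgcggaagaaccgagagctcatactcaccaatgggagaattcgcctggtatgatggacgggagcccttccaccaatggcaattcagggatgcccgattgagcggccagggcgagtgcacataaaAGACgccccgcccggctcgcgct
Id3: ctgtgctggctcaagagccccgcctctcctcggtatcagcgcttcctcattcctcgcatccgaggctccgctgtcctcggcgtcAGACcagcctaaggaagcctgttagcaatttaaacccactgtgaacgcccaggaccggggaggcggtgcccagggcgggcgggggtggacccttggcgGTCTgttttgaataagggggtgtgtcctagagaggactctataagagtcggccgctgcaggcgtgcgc
Id4: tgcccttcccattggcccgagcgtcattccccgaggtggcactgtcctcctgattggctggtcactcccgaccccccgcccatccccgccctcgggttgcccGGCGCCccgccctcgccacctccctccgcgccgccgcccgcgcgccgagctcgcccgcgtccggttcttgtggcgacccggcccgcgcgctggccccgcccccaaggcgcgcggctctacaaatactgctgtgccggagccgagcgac

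Searched on both strands, GGCGCC was found 1 time each in the Id2 and Id4 stretches and 0 times in that of Id3, and 9.54% of 27018 promoters of the same length held it. GTCT was found 1 time in Id2, 2 times in Id3 and 0 times in Id4, against 83.0% of all promoters with at least 1 match. The T half-site core GGTGTGA and the TCF/LEF core CTTTGA were found 0 times in each of the 3, and 3.31 and 14.0% of all promoters held them. The searched motifs do not overlap each other in these stretches. GC content was 62.8% in Id2, 62.8% in Id3 and 75.6% in Id4, above the median of 52.0% over all promoters. These stretches are in another build than the ChIP-seq windows and were not placed within them, and a match is a match of letters only.

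SMAD1 was enriched at all 4 Id loci in every SMAD1 library. Enrichment is the library's count over its autosomal mean, divided by the like value of the input of the same line, with 0.5 added to each. At an enrichment and a scaled value of at least 2, SMAD1 at 36 h in PV had 14 of the 257 windows (5.45%, against 0.0374% of all 2367750 windows kept). In BV it had 14 at 12 h (5.45%, against 0.123%), 15 at 24 h (5.84%, against 0.0276%) and 14 at 36 h (5.45%, against 0.0429%). Each of these sets held at least 1 window from each of the 4 loci. Of 37338 genome stretches of 64 windows, about the length of a locus, 1.26% held such a window in PV, and 4.68, 0.978 and 1.99% did at 12, 24 and 36 h in BV. Neighbouring windows share reads, so the counts of windows are not counts of separate sites.

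The Id loci also held windows that all SMAD1 libraries shared. In the whole genome, 177 windows (0.00748%) stood at 2 or more in all 4 SMAD1 libraries, and they formed 96 separate regions. Of these windows, 8 lay in the Id loci, with 1 at Id1, 4 at Id2, 2 at Id3 and 1 at Id4, in 5 regions. All 4 loci thus held such a window, against 0.233% of the genome stretches. By mean enrichment, the best Id2 window ranked 50 among the 96 regions, whereas those of Id3, Id4 and Id1 ranked 82, 93 and 94. By these 2 kb windows, Id2 thus stood in the middle of the regions common to the 4 libraries and the other genes near their low end.

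Few Id windows passed the stricter level used for calling regions, an enrichment and a scaled value of at least 4. At that level 1 locus, Id2, held 1 window in SMAD1 at 36 h in PV, where 0.00557% of all windows were called. In BV, 0 Id windows were called at 12, 24 or 36 h, where 0.00946, 0.00405 and 0.000887% of all windows were called. T and TCF1 also had 0, against backgrounds of 0.0482 and 0.00283%. The Id2 call was lost when the pseudocount was 1.

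**Figure D1:**
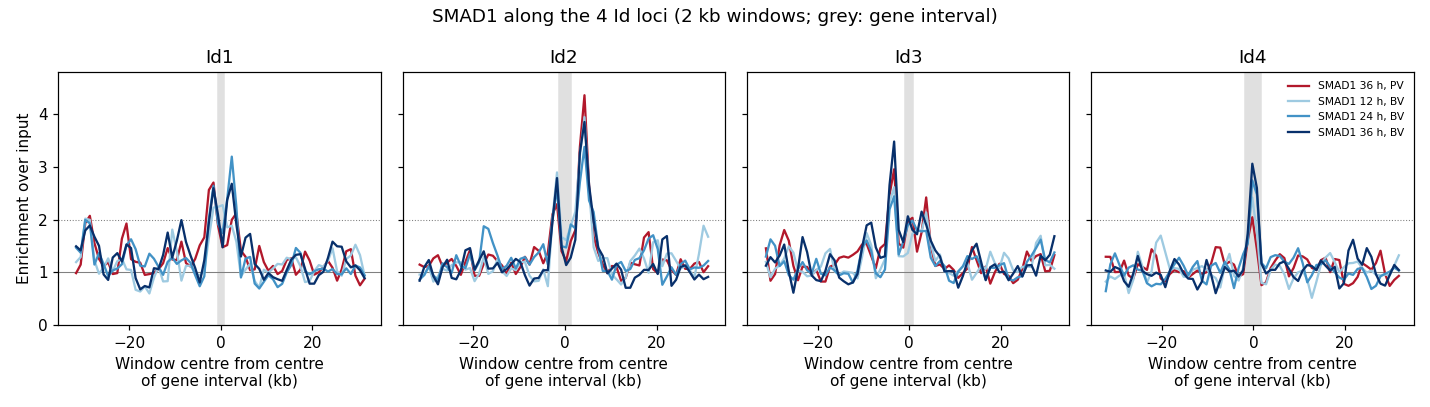
SMAD1 enrichment over the input of the same line (vertical axis) in 2 kb windows against the distance of the window centre from the centre of the gene interval in kb (horizontal axis), for SMAD1 at 36 h in PV (red) and at 12, 24 and 36 h in BV (light to dark blue); grey bands are gene intervals, the solid line is 1 and the dotted line 2. Id2 peaks at 4.36 in PV, and the peaks of the 4 libraries fall at the same windows at Id2, Id3 and Id4.

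The summit of a locus was the window where log2 enrichment, averaged over the 4 SMAD1 libraries, was greatest. SMAD1 at 36 h in PV, taken alone, placed the highest window of each locus at the same 4 positions. Each summit is described with the plain ratio over input, without pseudocount, and its exact (Clopper-Pearson) 95% interval, which covers counting error only.

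Id2, whose protein restrains E proteins in many progenitor cells, had the highest SMAD1 summit of the 4. It lay on chromosome 12 at 25783001 to 25785001, 2.00 kb beyond the higher-coordinate end of the gene interval. The minus strand in RefSeq makes that the side of the gene's start. SMAD1 there measured 4.36 at 36 h in PV (182 counts against 28 input counts), a plain ratio of 6.36 (4.26 to 9.85). In BV it measured 3.94, 3.38 and 3.85 at 12, 24 and 36 h, from 75, 81 and 60 counts against 101 in the deeper input. The plain ratios in BV were 5.48 (4.01 to 7.47), 4.63 (3.41 to 6.26) and 5.34 (3.82 to 7.43). All of these intervals overlap, and none reaches 1.

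Recovering 1 kb bins from the overlapping windows placed the highest Id2 signal in 25783001 to 25784000. Enrichment in that bin was 5.43 in PV (110 counts), and in BV 4.40 at 12 h, 4.12 at 24 h and 4.82 at 36 h (42, 50 and 38 counts). The next bin, from 25784001, measured 3.37 in PV and 3.49, 2.65 and 2.90 in BV. A second Id2 site lay at the other end of the gene, with its top window at 25777001 to 25779001. SMAD1 there measured 2.29 in PV, and 2.89, 2.59 and 2.79 at 12, 24 and 36 h in BV. The window between them that begins at 25779001 measured 1.21 in PV and 1.61, 1.47 and 1.14 in BV, so the signal flanked the gene on both sides.

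Id3, which shares the helix-loop-helix domain and is often co-expressed with Id1, had its summit on chromosome 4 at 135696001 to 135698001. This lies 1.40 kb before the lower-coordinate end of the interval, the side of the start by the plus strand in RefSeq. SMAD1 measured 2.95 in PV (145 counts against 37, plain ratio 3.84, 2.66 to 5.67). In BV it measured 2.61, 2.44 and 3.48 at 12, 24 and 36 h, from 54, 64 and 61 counts against 120. The plain ratios were 3.32 (2.36 to 4.62), 3.08 (2.23 to 4.20) and 4.57 (3.30 to 6.27). The signal was highest in the bin 135696001 to 135697000, with 4.42 in PV and 4.30, 3.84 and 4.84 at 12, 24 and 36 h in BV. The next bin, from 135697001, measured 1.64 in PV (39 counts) and 1.04, 1.13 and 2.21 at 12, 24 and 36 h in BV (9, 13 and 19 counts).

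A weaker Id3 site lay on the far side of the gene, at 135703001 to 135705001. SMAD1 measured 2.42 in PV and 2.13, 1.79 and 1.90 at 12, 24 and 36 h in BV. In the RefSeq order of genes, Id3 stands between the long noncoding RNA gene Gm42329 and E2f2, which encodes a cell cycle transcription factor.

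Id1, the member best known for its BMP-responsive enhancer, had 2 SMAD1 sites close to the gene. Its summit, 152560001 to 152562001, ends at the lower-coordinate end of the gene interval. SMAD1 measured 2.70 in PV (145 counts against 42, plain ratio 3.38, 2.38 to 4.89). In BV it measured 2.23, 2.64 and 2.59 at 12, 24 and 36 h, from 45, 70 and 44 counts against 120. The plain ratios were 2.77 (1.92 to 3.93), 3.36 (2.47 to 4.56) and 3.30 (2.28 to 4.70), and their intervals overlap one another throughout.

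The other Id1 site, at 152564001 to 152566001, lies 0.801 kb past the gene interval. SMAD1 measured 2.00 there in PV, and 1.88, 3.19 and 2.68 at 12, 24 and 36 h in BV. It was the highest Id1 window at 24 h (91 counts) and at 36 h (48 counts) in BV. At 12 h in BV the highest was 152562001 to 152564001, over the gene itself, with 2.27, so the 4 libraries placed the top of this locus at 3 different windows.

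A distant Id1 site about 28 kb from the gene stood close to the level of 2 in every SMAD1 library. At 152532001 to 152534001 SMAD1 measured 1.93 in PV, and 2.02, 1.99 and 1.79 at 12, 24 and 36 h in BV. Its 1 kb bin at 152533001 to 152534000 had 2.59 in PV and 3.03, 3.22 and 2.41 in BV, from 56, 27, 37 and 17 counts. By the mean over the 4 libraries this was the highest bin of the Id1 locus (2.80), slightly above that at 152560001 (2.75). Mcts2 is the nearest coding gene on that side in the RefSeq order, and Cox4i2 the nearest on the other.

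Id4, which acts in neural progenitors and spermatogonial stem cells, had a single site within the gene interval. Its summit was 48357001 to 48359001 on chromosome 13. SMAD1 measured 2.04 in PV (93 counts against 36, plain ratio 2.53, 1.70 to 3.83). In BV it measured 2.42, 2.74 and 3.06 at 12, 24 and 36 h, from 37, 55 and 40 counts against 82. The plain ratios were 3.33 (2.20 to 4.97), 3.87 (2.70 to 5.51) and 4.39 (2.93 to 6.48). The bin 48358001 to 48359000 measured 2.12 in PV and 2.67, 3.50 and 4.03 at 12, 24 and 36 h in BV, and the bin before it, from 48357001, 1.95 in PV and 2.11, 1.84 and 1.89 in BV.

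The input at the Id4 summit differed between libraries more than at the other loci, with scaled levels of 1.07 in input PV, 0.652 in input BVSC and 0.774 in input BV. At the other 3 summits the inputs lay between 0.836 and 1.25.

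Taken whole, with these sites included, the loci stood above the genome's level. The median SMAD1 enrichment over each locus lay between 1.03 and 1.28, against 0.976 to 0.987 over all windows kept. At the edge of the 30 kb reach, the 8 windows just inside measured between 0.643 and 1.68 in the SMAD1 libraries and the 8 just outside between 0.764 and 1.57. Beyond that reach, 1 region at 2 or more in PV lay within 100 kb of an Id gene, a search made after its values were seen. Its top window, chromosome 13 at 48322001 to 48324001, ended 32.5 kb before the lower-coordinate end of the Id4 interval. SMAD1 there measured 2.77 in PV and 3.38, 2.95 and 3.50 at 12, 24 and 36 h in BV, above the Id4 summit in each of these libraries. Its log2 ratio of 36 h over 12 h was 0.05, and it is counted below among the regions outside the Id loci.

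**Figure D2:**
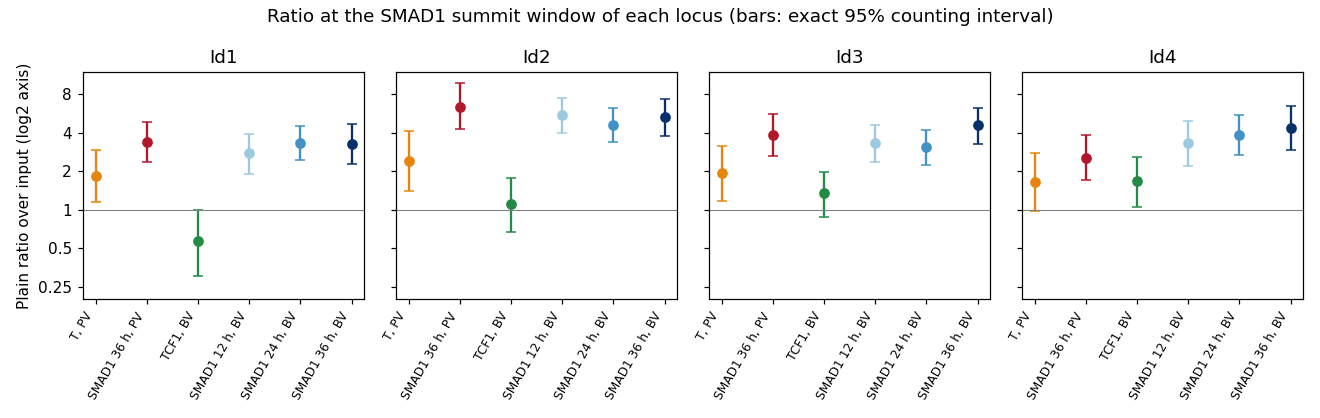
Plain ratio over the input of the same line (vertical log2 axis) at the SMAD1 summit window of each Id locus, with exact 95% counting intervals, for T and SMAD1 at 36 h in PV, and TCF1 and SMAD1 at 12, 24 and 36 h in BV (horizontal axis). Every SMAD1 interval lies above 1, from a lower bound of 1.70 for Id4 in PV, and TCF1 at Id1 is at 0.571.

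In the 2 kb summit windows, the order of the 4 genes was led by Id2 in every SMAD1 library, and the others changed places. In PV the order of the plain ratios was Id2, Id3, Id1 and Id4. In BV, Id3 and Id4 had 3.32 and 3.33 at 12 h, Id4 stood above Id1 and Id3 at 24 h, and Id3 above Id4 and Id1 at 36 h. The intervals of neighbours in each of these orders overlap. Id2 stood clear of Id1 at 12 h, with intervals of 4.01 to 7.47 and 1.92 to 3.93, and clear of Id4 in PV, with intervals of 4.26 to 9.85 and 1.70 to 3.83.

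The time course asked how SMAD1 at these genes moved between 12 and 36 h in BV. SMAD1 at the Id summits was not lower at 36 h than at 12 h beyond counting error. Most SMAD1 regions chosen outside the Id loci had lower values at 36 h. Counts summed over the 4 summits were 211 at 12 h, 270 at 24 h and 205 at 36 h, which scaling for depth turned into a log2 ratio of 0.00 for 24 h over 12 h (counting interval -0.27 to 0.27). The ratio was 0.24 for 36 h over 24 h (-0.03 to 0.51) and 0.24 for 36 h over 12 h (-0.04 to 0.53). All 3 intervals include 0, so neither a rise nor a fall was detectable at this depth. They cover counting error at these 4 windows alone, so they set no bound on a fall. Over all windows of the gene intervals the log2 ratio of 36 h over 12 h was 0.06.

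Each gene on its own gave a log2 ratio of 36 h over 12 h near or above 0. It was 0.25 at Id1 (-0.38 to 0.88), -0.04 at Id2 (-0.55 to 0.47), 0.46 at Id3 (-0.09 to 1.02) and 0.40 at Id4 (-0.28 to 1.08). For 24 h over 12 h it was 0.28 at Id1, -0.25 at Id2, -0.11 at Id3 and 0.22 at Id4, and all 4 intervals include 0. For 36 h over 24 h, Id3 alone had an interval above 0 (0.57, 0.04 to 1.10), from 61 and 64 counts. It was 0.21 at Id2, 0.18 at Id4 and -0.03 at Id1.

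These values were set beside SMAD1 regions elsewhere in the genome, chosen and centred in the PV library, which enters no BV time ratio. Each Id locus entered with its summit alone, although the same rule at 2 or more in PV held 9 regions in the Id loci. From 12 to 36 h in BV, SMAD1 enrichment went from 2.13 to 1.90 at the weaker Id3 site. It went from 2.89 to 2.79 at the second Id2 site and from 1.88 to 2.68 at the other Id1 site. The regions elsewhere were not placed against genes, so whether they are BMP targets was not tested. Some lie close together, as on chromosome 13 from 61758001 to 67927001, so they are not all separate loci. At the 74 regions outside the Id loci with an enrichment and scaled value of at least 4 in PV, the median log2 ratio of 36 h over 12 h was -1.32 (quartiles -1.65 and -1.08), and 73 of 74 were below 0. Only 1 of the 74 was at or above the lowest Id summit. Those regions are stronger than the Id summits, of which 3 lie between 2 and 4 in PV. At the 450 regions of that range the median was -0.58 (-1.11 and -0.13), with 366 below 0 and 98 (21.8%) at or above the lowest Id summit. The median of the 4 Id summits, 0.32, was reached by 41 of those 450 (9.11%). Both Id values include Id2, whose summit is above that range in PV and has the lowest ratio, -0.04. The summits within the range had 0.25 at Id1, 0.46 at Id3 and 0.40 at Id4.

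A narrower set was the regions that, like the Id summits, stood at 2 or more in all 4 SMAD1 libraries. The BV values that form the ratios also chose these regions, so they are given as a description, whereas the sets chosen in PV alone used no BV value. Of the 91 such regions outside the Id loci, 87 were lower at 36 h than at 12 h and 65 were lower by over 1, with a median of -1.18 (quartiles -1.41 and -0.98). Of them, 5 (5.49%) were at or above the lowest Id summit and 1 at or above the Id median. Summed counts gave a log2 ratio of 0.24 (-0.04 to 0.53) at the 4 Id summits, against -1.31 (-1.36 to -1.26) over the 91 regions, -0.96 (-0.99 to -0.93) over all 528 at 2 or more in PV and -0.73 (-0.76 to -0.69) over the 450 between 2 and 4 in PV. For 24 h over 12 h the sums gave 0.00 (-0.27 to 0.27) at the Id summits, against -1.04 (-1.08 to -0.9998) over the 91, -0.67 (-0.70 to -0.65) over the 528 and -0.47 (-0.50 to -0.44) over the 450. Among the 450, the median for 24 h over 12 h was -0.39. Of them, 182 (40.4%) were at or above the lowest Id summit and 112 (24.9%) at or above the Id median. Here too both Id values include Id2, which had the lowest ratio. The intervals at the Id summits do not overlap those of the other sets, but all cover counting error within 1 library per time. They do not measure the spread between regions, which the quartiles and shares above describe. The part that immunoprecipitation yield plays in each library was not tested.

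**Figure D3:**
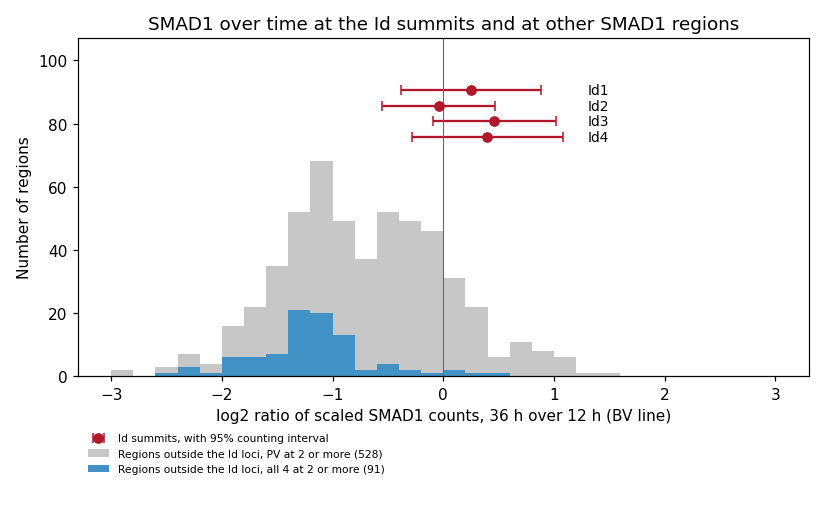
Number of SMAD1 regions outside the Id loci (vertical axis) by log2 ratio of scaled SMAD1 counts, 36 h over 12 h in BV (horizontal axis), for the 4 Id summits (red points, with 95% counting intervals, spaced vertically for legibility), 528 regions at 2 or more in PV (grey) and 91 regions at 2 or more in all 4 SMAD1 libraries (blue, drawn over the grey). The Id summits lie between -0.04 and 0.46, to the right of the medians of -0.77 of the grey bars and -1.18 of the blue bars, and 100 of the 528 regions are at or above the lowest of them.

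SMAD1 at 36 h was compared between the lines with each line's own input. Over the 4 summits the log2 ratio of PV over BV was -0.17 (-0.53 to 0.19). It was 0.25 at Id2, 0.04 at Id1 and -0.25 at Id3, with intervals that include 0. At Id4 it was -0.79 (-1.57 to -0.02), where the scaled SMAD1 values were 2.72 in PV and 3.40 in BV and the scaled inputs 1.07 in PV and 0.774 in BV. With input BVSC for both lines the input cancels, which leaves the ratio of the scaled SMAD1 counts with no input correction. That setting was chosen for single genes after seeing the data. It gave -0.32 at Id4 (-0.87 to 0.25), an exact interval that includes 0 and holds no input counts. Across every other window of the 4 loci, SMAD1 at 36 h in PV and at 12 h in BV, which share no input, had a Pearson correlation of 0.57 in log2 enrichment (128 windows), against 0.26 over all 1183833 such windows. Overlapping features of the genome, such as base composition and mappability, are common to both libraries.

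T, the T-box factor of the primitive streak and mesoderm, was lower than SMAD1 at each Id summit in PV. At the Id1 summit T measured 1.61 (38 counts), against 2.70 for SMAD1 (145 counts). T measured 1.88 at Id2 (33 counts), against 4.36 for SMAD1. At Id3 T measured 1.64 (35 counts), against 2.95, and at Id4 it measured 1.44 (29 counts), against 2.04. Summed over the summits, the log2 ratio of T over SMAD1 at 36 h in PV was -1.002 (-1.28 to -0.73), and each gene's own interval lies below 0. T and SMAD1 were drawn down with different antibodies, so this is a ratio of levels only and does not compare occupancy. The summit windows were chosen for high SMAD1, which by itself favours SMAD1 in this comparison. Over all windows of the gene intervals, chosen by position, the ratio was -0.17.

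T was nevertheless slightly raised at the SMAD1 summits. Its plain ratios over input were 1.85 at Id1 (1.16 to 2.94), 2.41 at Id2 (1.41 to 4.14), 1.94 at Id3 (1.18 to 3.16) and 1.65 at Id4 (0.975 to 2.76). The interval includes 1 only at Id4. Of all windows kept, 2.44% had a T enrichment as high as that at the Id1 summit, 0.702% as at Id2, 2.04% as at Id3 and 5.79% as at Id4. The same shares for SMAD1 in PV were 0.0147, 0.00477, 0.0120 and 0.0476%.

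Only 1 of the 257 Id windows stood at 2 or more for T (0.389%, against 0.412% of all windows), a share close to the background. It was the weaker Id3 site at 135703001 to 135705001, where T measured 2.11 (37 counts) and SMAD1 in PV 2.42 (91 counts). At Id1, T was highest at 152558001 to 152560001 with 2.07 (30 counts, scaled value 1.83), 2.00 kb from the gene and next to the SMAD1 summit. The highest T value of Id4, 1.72, lay 19.5 kb from the gene. Of genome stretches of 64 windows, between 12.6 and 41.2% reached a T value as high as the highest of these loci.

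**Figure D4:**
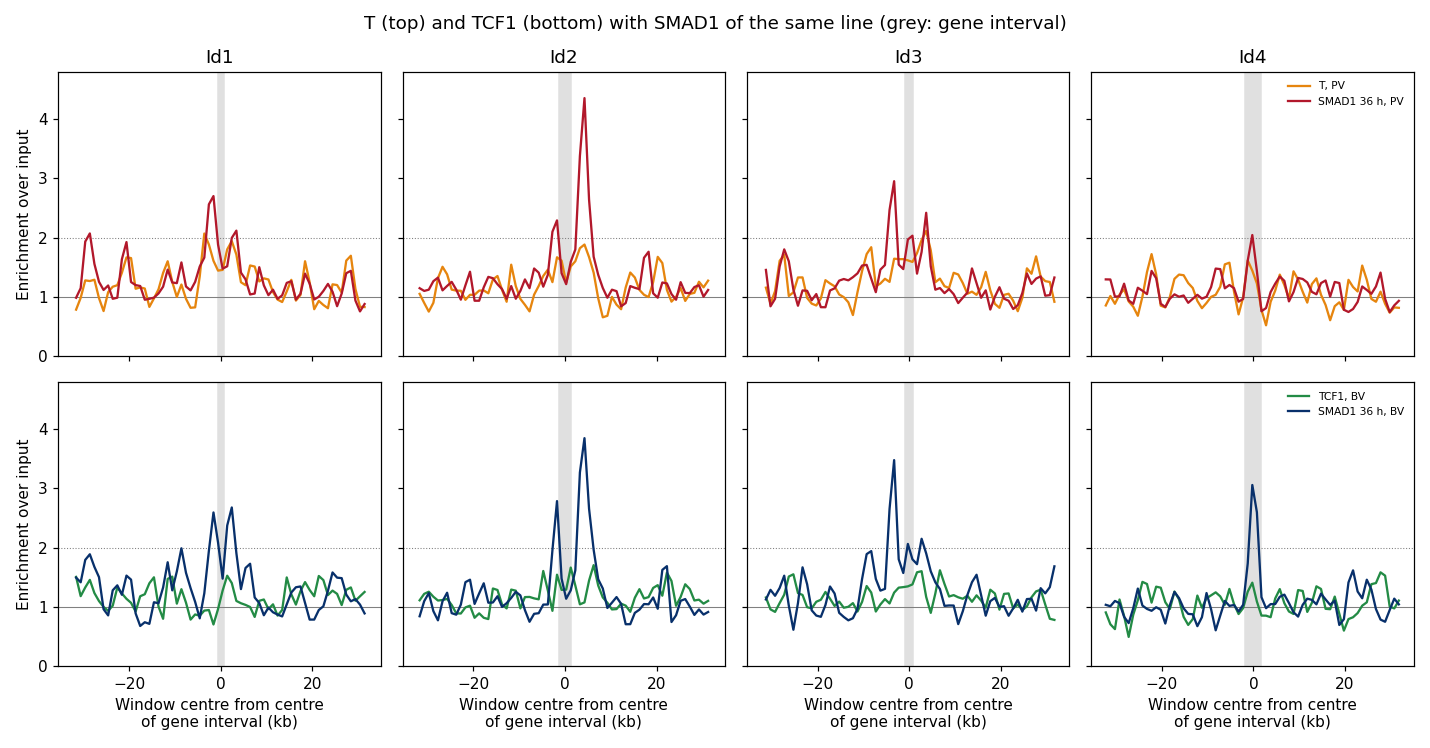
Enrichment over input (vertical axis) in 2 kb windows against distance from the centre of the gene interval in kb (horizontal axis), with T (orange) and SMAD1 at 36 h (red) in PV in the top row and TCF1 (green) and SMAD1 at 36 h (dark blue) in BV in the bottom row; grey bands are gene intervals and the dotted line is 2. T reaches 2.11 at Id3 and TCF1 stays at or below 1.71 in all 4 panels.

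TCF1, a DNA-binding partner of beta-catenin in WNT signalling, stood near input level over the Id loci. At the SMAD1 summits it measured 0.703 at Id1 (14 counts), 1.08 at Id2 (23 counts), 1.24 at Id3 (33 counts) and 1.41 at Id4 (28 counts). SMAD1 at 36 h in BV measured 2.59, 3.85, 3.48 and 3.06 at the same windows. The log2 ratio of TCF1 over SMAD1 was -1.94 (-2.30 to -1.59) over the 4 summits, and each gene's own interval lies below 0. Here too the antibodies differ, so the ratio is of levels only, and the choice of windows for high SMAD1 by itself favours SMAD1. Over all windows of the gene intervals, chosen by position, the ratio was -0.68.

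The plain ratio of TCF1 over input was 0.571 at Id1 (0.303 to 0.997), 1.12 at Id2 (0.676 to 1.77) and 1.35 at Id3 (0.887 to 1.99). At Id4 it was 1.67 (1.05 to 2.60), an interval above 1. None of the 257 windows stood at 2 or more for TCF1, where 0.0919% of all windows did. The highest TCF1 values were 1.53 at Id1, 1.71 at Id2, 1.62 at Id3 and 1.58 at Id4, and between 26.6 and 54.3% of genome stretches of 64 windows reached as high a value. The windows with these values were not the SMAD1 summits, and at Id4 it lay 25.001 kb from the gene.

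Libraries that share no input were also compared along the loci as a description. T in PV and SMAD1 at 12 h in BV had a Pearson correlation of 0.39 over the 128 windows, against 0.20 over all windows. TCF1 in BV and SMAD1 at 36 h in PV had 0.23, against 0.31 over all windows.

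The whole series set the precision of these values. Depth ranged from 14925074 to 43354004 reads in the immunoprecipitated libraries and from 42532115 to 134657262 in the inputs, and a mean autosomal window held 11.8 to 34.2 counts in the immunoprecipitated libraries and 33.5 to 105.9 in the inputs. The deepest SMAD1 library, PV at 36 h, gave the highest counts at the Id summits, between 93 and 182.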

How the data were processed

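Column 4 of each of the 9 deposited files holds whole numbers in 2 kb windows stepping by 1 kb. In all but input BVSC these add up from shared 1 kb read counts, with no normalization by the authors, as the values show. Per the labels' protocols, a SOLiD 5500xl sequencer made single-end reads. Per the submitters' processing notes, Bowtie 0.12.8 and the mm9 build were used. No source used here states how duplicate reads were treated. Coordinates are as the tables write them.

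Each library was divided by its mean over autosomal windows. Windows on the autosomes and X were kept where scaled inputs averaged 0.25 or more and none was above 3 (2367750 of 2639004, or 89.7%). Input PV served PV libraries and input BV served BV libraries, with a pseudocount of 0.5. Genome stretches were runs of 64 windows with at least 50 kept. The 1 kb bins were solved from overlapping windows, and 0 bins on the 4 chromosomes were negative in 8 libraries, whereas 46.0 to 49.0% were in input BVSC, whose bins were not used. The window values of input BVSC were thus made differently, in a way that no source used here states. Input BVSC still entered the filter on inputs, the input levels given at the summits and the alternatives that use it. Intervals are 95% and cover counting error alone. PCR copies make reads that are no separate molecules, so where copies remain the intervals are too narrow. The interval of PV over BV with each line's own input is a normal interval on the log ratio of summed counts. With 1 library per group, no test across libraries exists. Calls were tested on simulated data whose only error was counting error, so that test does not cover PCR copies or other sources of error.

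The loci, thresholds and comparisons were chosen with earlier results of these data known. All 4 members are named, whereas the windows at 2 or more are counted and only some of them are named. Other BMP targets were not analysed here, since no mm9 annotation was used to place them. RefSeq tables of GRCm38.p6 gave names, neighbours, strands and sequences. Python 3.11.15, numpy 2.4.6, pandas 2.3.3, scipy 1.17.1 and matplotlib 3.10.9 were used.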

Additional observations from a re-analysis of the deposited data

How the results depend on the processing

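No paired analysis was possible because each group held 1 library. The pooled ratios stayed within their counting intervals in 19 of 22 alternatives and the summit enrichments in all 120. Among the 22, choosing the summits in SMAD1 at 36 h in PV alone picked the same windows. Those alternatives repeat the main values and are no separate check. The exceptions among the pooled ratios were those over all windows of the gene intervals, which leave out the summits of Id2 and Id3. These were -0.051 for SMAD1 at 36 h over 24 h, against 0.24 at the summits, -0.17 for T over SMAD1 and -0.68 for TCF1 over SMAD1. For 36 h over 12 h, 0.062 was found there and 0.064 in the top 1 kb bins of PV, an alternative chosen after seeing the data. The number of loci with a called window changed in 11 of 54 alternatives. With a threshold of 3, BV had 1, 2 and 3 such loci at 12, 24 and 36 h. It was 1 at 12 h and 1 at 36 h with a pseudocount of 0.25, with input BVSC and with the mean of the 3 inputs, against 0. In PV it was 0 with a threshold of 6 or a pseudocount of 1, against 1. T and TCF1 had 0 under all 9 alternatives each. Some alternatives could not have changed a count. A threshold of 6, a pseudocount of 1 or a shorter reach cannot raise a count of 0. Dropping the filter on inputs changes nothing, since every Id window passed it. Depth limits each gene's time ratio: with 37 to 81 counts per BV summit, a change smaller than a gene's interval was not detectable.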
